A study of Mus musculus with 2 samples.

Results

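The genes described here are Hcn2, Hcn3 and Hcn4, which encode hyperpolarization-activated cyclic nucleotide-gated (HCN) channel subunits, and Pex5l, which encodes TRIP8b, their auxiliary subunit. All transcript models assigned by gene name to these 4 genes were taken from both libraries. They held 110 reads on 22 models in replicate 1 and 120 reads on 23 models in replicate 2, out of 135738 and 130247 models, and 3 of the 4 genes had at least 1 read in each library. Among all annotated genes, 16778 and 16506 had a read. RNA of the hippocampus (tissue label: layer of hippocampus) of female B6CASTF1/J mice aged 2 months was read as whole transcripts by long-read sequencing. There were 2 libraries of 1 group, each from 2 µg of RNA, which gave 836240 and 752291 reads. The mice are F1 hybrids and carry no stated genetic change or treatment. The labels call the libraries biological replicates 1 and 2 but give them 1 donor identifier, so the spread between them, and every p-value below, may be technical. There is no second group, so no condition was compared.

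HCN channels open when the membrane becomes more negative and pass a depolarizing cation current, known as Ih. Cyclic AMP binds inside the cell to the cytoplasmic end of each subunit and eases opening. In hippocampal pyramidal neurons the current is strongest in the distal dendrites, where it dampens the summation of synaptic input. TRIP8b binds the subunits at their cyclic nucleotide-binding domain and, through its tetratricopeptide repeats, at their last residues. It controls how many channels reach the cell surface, and its splice forms, which differ near the N-terminus, are known to raise or lower that number.

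The labels' tissue was checked against marker genes. Each library held reads of all 8 markers of hippocampal fields, whose median level was 79.6 CPM (reads per 1000000 reads that are not spike-ins). Their highest was Wfs1 of CA1, at 254 ± 16.7 CPM (SD, n = 2). Their lowest were Prox1, Rgs14 and Grik4, with means of 19.4, 23.7 and 30.9 CPM. These 3 lay below the highest cortex marker, Fezf2, at 39.5 CPM. All thalamus and cortex markers summed below also had reads in each library, so having a read does not tell these tissues apart. The hippocampal markers summed to 748 and 782 CPM, general neuron markers to 4009 and 3937 CPM and interneuron markers to 438 and 435 CPM. In bulk tissue other cells contribute too: markers of oligodendrocytes summed to 2548 and 2778 CPM and those of astrocytes to 2637 and 2553 CPM. Markers of thalamus summed to 155 and 111 CPM (median 20.3) and those of cortex to 82.3 and 92.6 CPM (median 20.5). The hippocampal, thalamus and cortex lists hold 8, 6 and 4 genes, so these sums cover unequal lists. The highest thalamus marker was Calb2, at 69.0 and 33.5 CPM, whereas Tcf7l2 had 2 and 4 reads and Slc17a6 had 4 and 3. The 4 medial habenula markers summed to 0 and 5.37 CPM: Chrnb4 and Pou4f1 had 0 reads in both libraries, Tac2 had 0 and 3 and Chrna3 had 0 and 1. The part of these other cells in the channel levels was not tested, and fewer cells of a type and less RNA per cell cannot be told apart.

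The exons that Hcn2, Hcn3 and Hcn4 share and their docking ends are shown first, to show how alike the genes are and where TRIP8b binds. Each channel's leading annotated transcript has 8 exons. Of these, 5 (exons 3 to 7, of 162, 219, 147, 241 and 165 bases) have the same length in all 3 genes, 934 bases together. Over these bases Hcn2 and Hcn4 were identical at 83.4% of positions, Hcn3 and Hcn4 at 81.8%, and Hcn2 and Hcn3, the least alike of these pairs, at 78.9%. The tails where TRIP8b docks follow, from the annotated GENCODE M21 transcripts on mm10, as the last 30 coding bases before the stop codon, with the last 9 in capitals.
Hcn2, chr10:79735508-79735537, plus strand: tctgcgcgctcgcgcctctctTCCAACTTG
Hcn3, chr3:89147602-89147631, minus strand: cccagaggtccccaaatttctGCCAACATG
Hcn4, chr9:58860731-58860760, plus strand: ccagtacgctccaaactgccgTCTAATTTA
Hcn2 and Hcn3 shared 7 of the 9 capital bases, Hcn2 and Hcn4 shared 6, and Hcn3 and Hcn4 shared 4. Over the 30 bases the order differed: Hcn2 and Hcn4 shared 16, Hcn2 and Hcn3 15, and Hcn3 and Hcn4 14. These are counts of bases. Read as codons, the capitals of Hcn2 and of Hcn4 both encode serine, asparagine and leucine. Those of Hcn3 encode alanine, asparagine and methionine. Binding of TRIP8b to these ends was not measured. The order of the pairs by bases thus does not rank the docking ends by likeness.

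Hcn2 was the most abundant of the 3 channel genes in both libraries. It had 85 reads in replicate 1, or 103 CPM (95% exact interval 82.1 to 127), and 92 reads in replicate 2, or 123 CPM (99.5 to 151). The mean was 113 ± 14.6 CPM (SD, n = 2), rank 1638 of 14730 protein-coding genes with a read, above 88.9% of them. Among reads of Hcn2, Hcn3 and Hcn4, Hcn2 made up 85 of 91 (93.4%, 86.2 to 97.5) in replicate 1 and 92 of 96 (95.8%, 89.7 to 98.9) in replicate 2. All intervals here are exact (Clopper-Pearson) and cover counting error only.

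Hcn3, a subunit that responds little to cyclic AMP, had 6 reads (7.26 CPM, 2.66 to 15.8) and 4 reads (5.37 CPM, 1.46 to 13.7), with a mean of 6.31 ± 1.34 CPM. Unspliced reads within the last exon made up 3 of the 6 in replicate 1 and 0 of the 4 in replicate 2. Of those 3, 1 was on a model listed as 1 base long. Hcn4, the main channel of the cardiac pacemaker, had 0 reads in both libraries, which allows up to 3 reads, or 3.63 and 4.02 CPM, as a one-sided limit (the two-sided exact interval reaches 4.46 and 4.95 CPM). At this depth a low level of Hcn4 was not detectable. The intervals of Hcn3 reached below that limit in both libraries.

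Pex5l had 19 reads (23.0 CPM, 13.8 to 35.9) in replicate 1 and 24 reads (32.2 CPM, 20.6 to 47.9) in replicate 2. Its mean was 27.6 ± 6.51 CPM (SD, n = 2), rank 6057 of the same 14730 genes, above 58.9% of them. Unspliced reads made up 7 in each library, and on full-splice models alone the mean was 14.1 CPM. Hcn2 lay above Pex5l in each library, with intervals that did not overlap. Hcn3 lay below Pex5l in each, with intervals that overlapped in replicate 1 and did not in replicate 2.

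A long read counts 1 RNA whatever its length, so CPM was not divided by length, but how recovery falls with length was not measured. The annotated transcripts are 3195 bases long for Hcn2, 4002 for Hcn3 and 6118 for Hcn4, and the leading Pex5l model is 3051 bases long. Per kilobase of these models, the level of Hcn2 was 35.4 ± 4.55 CPM (SD, n = 2), that of Pex5l 9.04 ± 2.13 and that of Hcn3 1.58 ± 0.334. The order Hcn2, Pex5l, Hcn3 was the same on that scale. The levels differed far more than the lengths, so dividing by length could not have changed it. That order is thus no check on recovery by length.

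**Figure D1:**
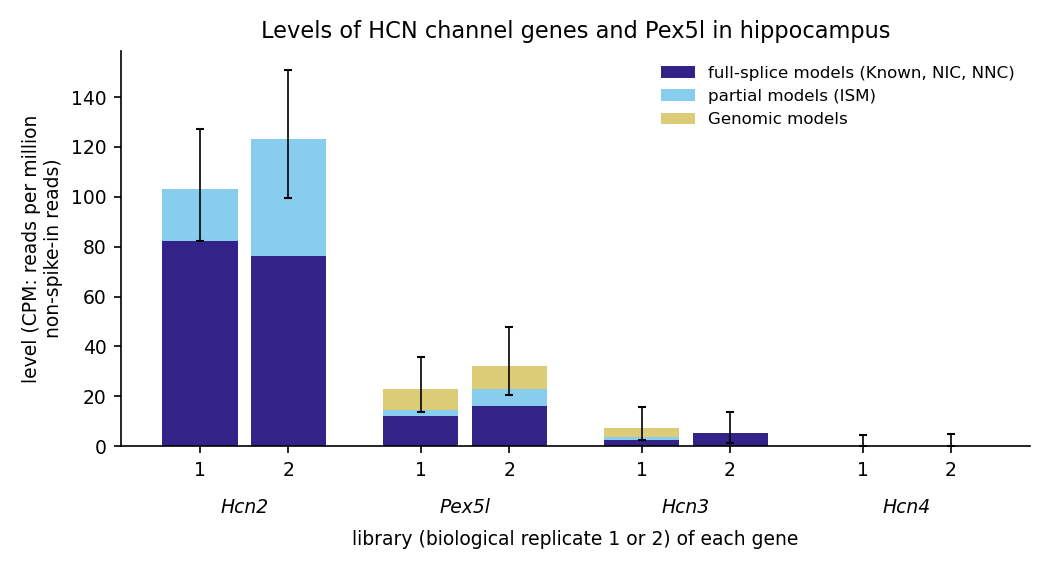
Level of each gene (CPM, vertical axis) in replicate 1 and replicate 2 (horizontal axis), split by the class of model the reads fell on: full-splice, partial (ISM) or Genomic. Error bars are exact 95% intervals of the whole bar; Hcn2 stands at 103 and 123 CPM, and Hcn4 at 0 in both libraries.

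The libraries were compared gene by gene to see whether a level differed beyond counting error. For each gene with at least 20 reads, a two-sided exact binomial test set the 2 counts against the library totals, with Benjamini-Hochberg adjustment over all 9062 genes tested. A gene was called at an adjusted p under 0.05 and a ratio of at least 2-fold, which 0.309% of the tested genes met. Of the 2 genes tested here (Hcn2 and Pex5l), 0 were called, and 0 had an unadjusted p under 0.05. Hcn2 was 1.2-fold higher in replicate 2 (log2 ratio 0.26, adjusted p = 0.911, exact binomial test) and Pex5l 1.4-fold higher (log2 ratio 0.49, adjusted p = 0.939, exact binomial test). Across all tested genes the median size of the log2 ratio was 0.24. These tests compare 2 libraries and no condition. Hcn3, with 10 reads together, and Hcn4 were below the minimum.

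Nearly all Hcn2 reads with a whole intron chain were of 1 isoform. Hcn2 lies at chr10:79716634-79736108 on the plus strand. The Hcn2 reads classed as full-splice (classes given with the processing) were all on chains of 8 exons. Of these, 66 of 68 (97.1%, 89.8 to 99.6) in replicate 1 and 57 of 57 (100%, 93.7 to 100) in replicate 2 had the chain of Hcn2-202. It joins the exons for the transmembrane part to those for the cyclic nucleotide-binding domain. The other 2 reads, both in replicate 1, used an acceptor 2 bases inside exon 7. No difference between the libraries in the share of the leading chain was detected (two-sided Fisher's exact test, p = 0.5, adjusted p = 1.0). The adjustment ran over the 4819 genes whose libraries each gave 20 or more full-splice reads, of which 0.187% were called. With 2 reads off the leading chain, a small difference could not be seen.

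The libraries were less alike in how far Hcn2 reads reached. Full-splice reads were 68 of 85 (80.0%, 69.9 to 87.9) in replicate 1 and 57 of 92 (62.0%, 51.2 to 71.9) in replicate 2, with intervals that just overlapped. Over all annotated genes the full-splice share was 77.4% and 76.9%. Reads confined to the last exon, of 1251 bases, which holds the end of the coding sequence and the 3′ untranslated region, were 11 of 85 (12.9%, 6.64 to 22.0) and 25 of 92 (27.2%, 18.4 to 37.4). Their model is listed with the bounds of the annotated exon, so where within the exon these reads began is not known. On full-splice reads alone Hcn2 was slightly lower in replicate 2 (log2 ratio -0.11), so the direction of the difference between libraries rests on partial reads. Exons 2 to 7 were each the starting exon of at most 4.35% of reads in either library. The models of Hcn2 reads thus began mostly in exon 1 or in exon 8.

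**Figure D2:**
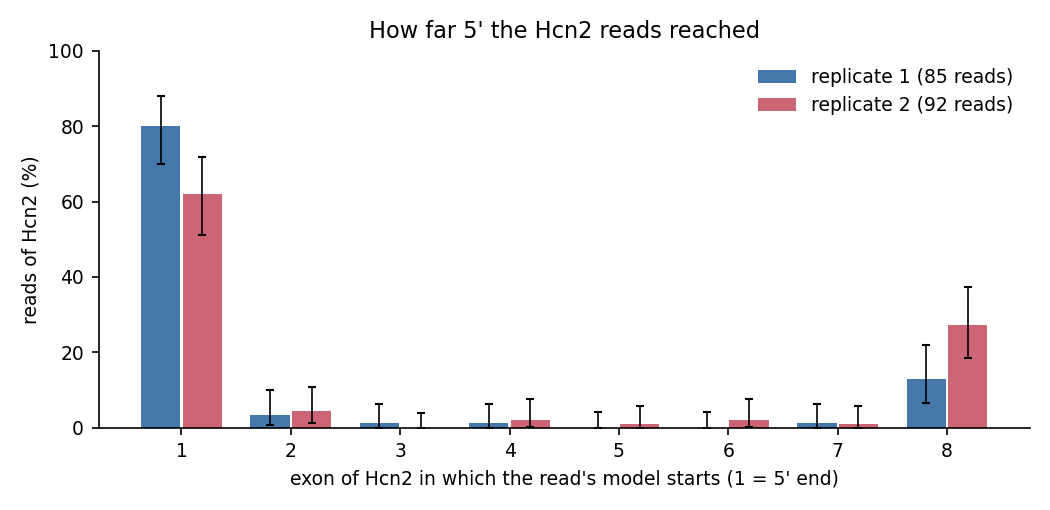
Share of Hcn2 reads (percent, vertical axis) by the exon of Hcn2-202 in which the read's model starts (horizontal axis), in replicate 1 and replicate 2, with exact 95% intervals as bars. Exon 1 holds 80.0% and 62.0% of reads and exon 8 holds 12.9% and 27.2%.

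Too few Hcn3 reads were full-splice for a test. Hcn3, at chr3:89146074-89160196 on the minus strand, had 1 of 2 full-splice reads on Hcn3-201 in replicate 1 and 2 of 4 in replicate 2. Its other 3 full-splice reads each carried a different unannotated splice site: an acceptor 122 bases inside exon 4, an acceptor 23 bases before exon 3, and a donor 38 bases past exon 2. The form with the shifted donor has 7 exons and also keeps the intron between exons 3 and 4. Each of these unannotated Hcn3 forms rests on 1 read.

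Pex5l, at chr3:32949408-33143247 on the minus strand, varied in its splicing at the 5′ end. GENCODE M21 lists 12 Pex5l transcripts, 9 of them coding. The first exons lie in an upstream and a downstream group, 60187 bases apart. Each group brings its own start codon, so the choice between them changes the N-terminus of TRIP8b. Internal cassette exons of 72 and 105 bases, a whole number of codons each (24 and 35), lie between them and the shared body of the gene. The annotated coding bases of both starts and of both cassette exons are given below, 5′ to 3′ on the minus strand, from GENCODE M21 transcripts on mm10, with start codons in capitals.
Upstream first exon, chr3:33142849-33142869: ATGtaccagggacacatgcag
Downstream start, chr3:33081976-33082068: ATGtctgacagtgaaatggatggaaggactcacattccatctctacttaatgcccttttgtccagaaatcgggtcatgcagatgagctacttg
Cassette exon of 72 bases, chr3:33080465-33080536: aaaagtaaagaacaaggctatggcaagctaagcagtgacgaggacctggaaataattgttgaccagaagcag
Cassette exon of 105 bases, chr3:33024696-33024800: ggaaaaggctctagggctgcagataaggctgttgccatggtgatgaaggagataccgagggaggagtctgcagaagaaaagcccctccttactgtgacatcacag
The upstream start adds 21 coding bases before the first splice and the downstream start 93.

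Most spliced Pex5l reads began at the upstream first exon. They were 11 of 12 (91.7%, 61.5 to 99.8) in replicate 1 and 15 of 17 (88.2%, 63.6 to 98.5) in replicate 2, a mean of 90.0 ± 2.43% (SD, n = 2). These counts include 2 and 1 reads of Pex5l-207, which has no annotated coding sequence and so gives no N-terminus of TRIP8b. The downstream group had 1 and 2 reads. Of these, 1 read of replicate 2 started in the 160-base exon that holds the downstream start codon and is the second exon of the others, and whether it was cut short is not known.

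The 105-base exon was present in most reads that covered its place. It was included in 7 of 10 reads (70.0%, 34.8 to 93.3) in replicate 1 and 11 of 16 (68.8%, 41.3 to 89.0) in replicate 2, a mean of 69.4 ± 0.884% (SD, n = 2). The 72-base exon was included in 1 of 10 (10%, 0.253 to 44.5) and 3 of 16 (18.8%, 4.05 to 45.6), a mean of 14.4 ± 6.19%. In both libraries the share with the 105-base exon was the higher, with intervals that overlapped. On annotated models alone, which left 3 reads, both means were 25.0%, from the same 1 read. That setting could not test the 105-base exon. It drops in advance the reads that join the upstream first exon to it, a junction in 0 annotated transcripts. A minimum of 10 including and 10 skipping reads over both libraries was set for cassette exons, and 0 of 3 candidates met it. The counts were 18 including and 8 skipping for the 105-base exon, 4 and 22 for the 72-base exon, and 2 and 23 for the 160-base exon of the downstream start. The first 2 of these are described all the same, a choice made after their values were seen.

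Of the 29 spliced reads with a first exon, 26 also covered the place of the cassette exons, and in these start and cassette can be read together. With the upstream start, 7 of 9 reads (77.8%, 40.0 to 97.2) and 10 of 14 reads (71.4%, 41.9 to 91.6) held the 105-base exon. The 72-base exon was in 0 of 9 (0%, 0 to 33.6) and 1 of 14 (7.14%, 0.181 to 33.9) reads with the upstream start. By contrast, all 3 reads from the downstream group held the 72-base exon, 1 of 1 in replicate 1 and 2 of 2 in replicate 2 (15.8 to 100). The 105-base exon was in 0 of 1 and 1 of 2 of those reads. With 3 reads on one side the difference was not tested.

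The most frequent Pex5l chain is not among the annotated transcripts. It has 14 exons and joins the upstream first exon directly to the 105-base exon. It had 3 of 10 full-splice reads (30.0%) in replicate 1 and 5 of 12 (41.7%) in replicate 2. Its first intron, of 118048 bases, was in 7 and 9 reads over all chains and in 0 of the 12 annotated transcripts. In the annotation 3 transcripts start at the upstream first exon and 4 hold the 105-base exon, but 0 coding sequences have both. The annotated direct junction, from the upstream first exon to the 112-base exon past both cassettes, was in 2 and 4 reads. Both splice sites of the unannotated intron are annotated, each in other transcripts, so the intron pairs listed sites in a way that GENCODE M21 does not.

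The remaining leading chains had fewer reads each. A partial chain with the same first 10 introns, whose last model exon runs on unspliced past the 198-base exon, had 2 and 2 reads. A 13-exon chain from the upstream start without either cassette exon and with a 127-base exon had 1 and 2 reads. Pex5l-207, a noncoding 2-exon transcript that ends within the first intron, had 2 and 1 reads. Pex5l-206, the annotated coding form with the upstream start, had 1 and 1. A 14-exon chain like the leading one but with the 127-base exon had 2 and 0. Pex5l-209, with the downstream start and both cassette exons, had 0 and 1. The other 6 chains had 1 read each. In replicate 1 this was a 15-exon chain from the downstream start with the 72-base exon and without the 105-base exon (10% of full-splice reads). In replicate 2 there were a 15-exon chain from the upstream start with both cassette exons and an 11-exon chain from the upstream start with the 105-base exon and the 127-base form (8.33% each). The remaining 3, partial chains of 14, 6 and 4 exons, were in replicate 2.

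The 127-base exon and a 124-base form of it differ by 3 bases at the acceptor, which keeps the reading frame. Those 3 bases are in capitals at the start of the exon, chr3:33006017-33006046 on the minus strand. They are not a codon of their own: in Pex5l-204, which holds them, the coding bases before this exon leave a remainder of 1 after division by 3, so the capitals fall across a codon boundary.
First 30 bases of the 127-base form: TAGacattcaaacacaactggaaaaatggg
The shorter form was in 6 of 10 reads (60.0%, 26.2 to 87.8) in replicate 1 and 11 of 15 (73.3%, 44.9 to 92.2) in replicate 2. Among reads with the 105-base exon it was in 5 of 7 (71.4%, 29.0 to 96.3) and 9 of 10 (90.0%, 55.5 to 99.7). Among reads without that exon it was in 1 of 3 (33.3%, 0.84 to 90.6) and 2 of 5 (40.0%, 5.27 to 85.3). The share was higher with the exon than without it in both libraries, within intervals that overlapped.

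**Figure D3:**
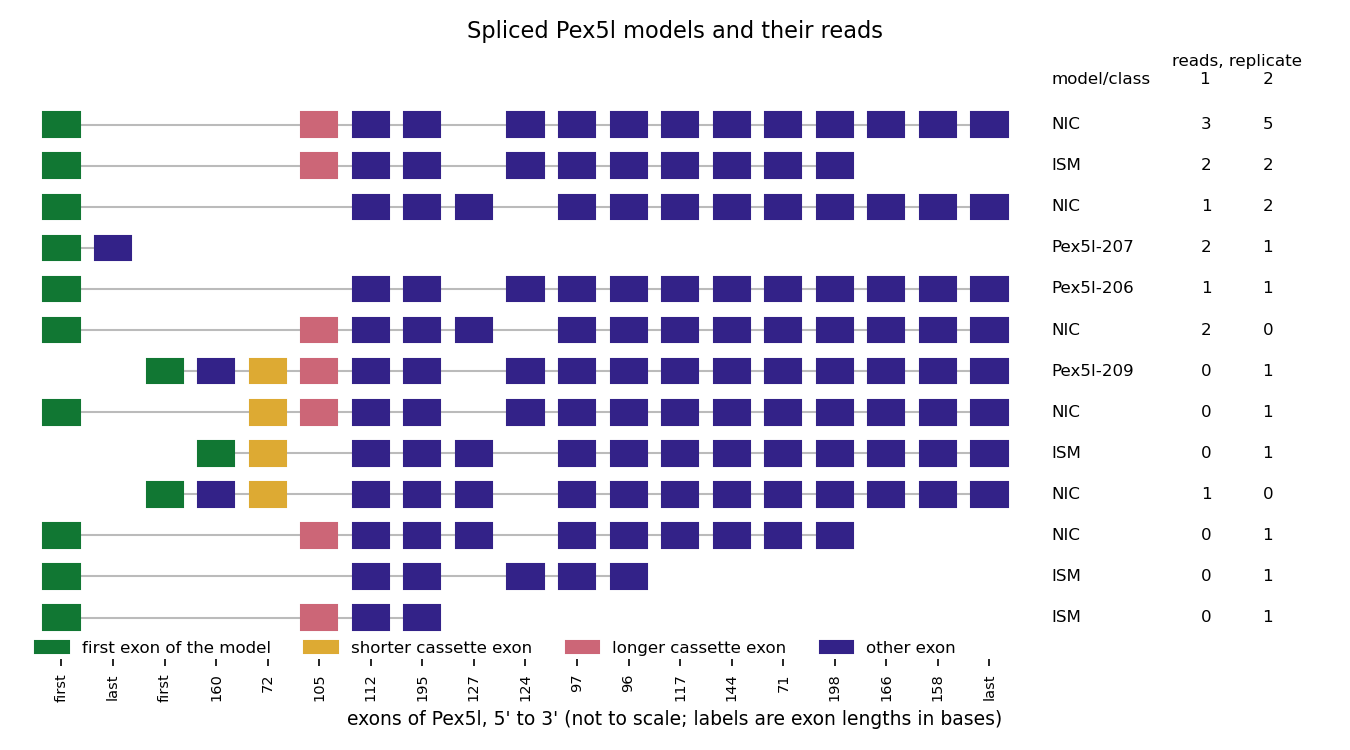
Each row is a spliced Pex5l intron chain and each box an exon, 5′ to 3′ (horizontal axis, not to scale, labelled by exon length in bases), with reads in replicate 1 and replicate 2 at the right. Chains with the upstream first exon and the 105-base exon lead, with 3 and 5 reads for the top chain; the last box of a partial chain can run on into the next intron.

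Not all Pex5l reads from the upstream start crossed the whole gene. They reached the exon with the stop codon in 7 of 11 (63.6%, 30.8 to 89.1) and 9 of 15 (60.0%, 32.3 to 83.7) reads. The models of the other 4 and 6 end inside the gene: 2 and 3 run unspliced past the 198-base exon, 0 and 1 past the 96-base exon, 0 and 1 end at the 195-base exon, and 2 and 1 are Pex5l-207. On full-splice models alone, 7 of 9 and 9 of 11 reads from the upstream start reached the exon with the stop codon. Reads of that class thus need not cross the whole gene. Unspliced Pex5l reads were 7 in each library, of which 5 and 6 fell on a single 321-base model within the last exon. These 5 and 6 reads count toward the gene's level but carry no start or cassette.

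The other genes around the channels were described from fixed lists. Over all tested genes the median level was 42.7 CPM. Of 15 genes for HCN partners and regulators, 13 had a read, 2 were at 100 CPM or more, and the median was 34.4 CPM. Vapa, an endoplasmic reticulum tether, was highest at 267 ± 15.6 CPM (SD, n = 2). Next came the postsynaptic scaffold Grasp, at 124 ± 8.17, and the adaptor Apba2, at 95.1 ± 24.9 CPM. At the low end Kcne2, a small accessory subunit, and Cav3, the muscle caveolin, had 0 reads, and Mrvi1 had 0 and 1. Of 9 partners tested between libraries, 0 were called, beside 0.309% of all tested genes.

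The adenylyl cyclases, which make the cyclic AMP that the channels bind, had a read in at least 1 library for 10 of 10 genes, with a median of 23.6 CPM. Adcy1, a calmodulin-stimulated cyclase, stood at 144 and 197 CPM, Adcy2 at 132 and 161 CPM, and Adcy3 at 53.2 and 69.8 CPM. The lowest were Adcy4 at 3.63 and 6.71 CPM, Adcy7 at 8.47 and 0 CPM and Adcy10, the soluble cyclase, at 0 and 2.68 CPM. Of the 6 tested, 0 were called, against the same 0.309% overall. The cyclic nucleotide-gated channels of sensory cells, the nearest relatives of the HCN family, were nearly absent from the counts: 5 of 6 had 0 reads, and Cngb1 had 1 read in each library.

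Pex5l is a relative of Pex5, the receptor that carries proteins into peroxisomes. Of that import route 8 genes are described, all with reads, and their median was 27.9 CPM. Pex5 itself stood at 64.1 and 57.7 CPM. The docking factor Pex14 was highest at 106 ± 7.56 CPM (SD, n = 2), with the ATPase Pex6 at 105 ± 29.3 CPM, and the lowest were Pex10 at 11.1 ± 7.10, Pex26 at 16.2 ± 7.48 and Pex7 at 21.8 ± 5.19 CPM. Of the 7 tested, 0 were called, again beside 0.309% of all tested genes.

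**Figure D4:**
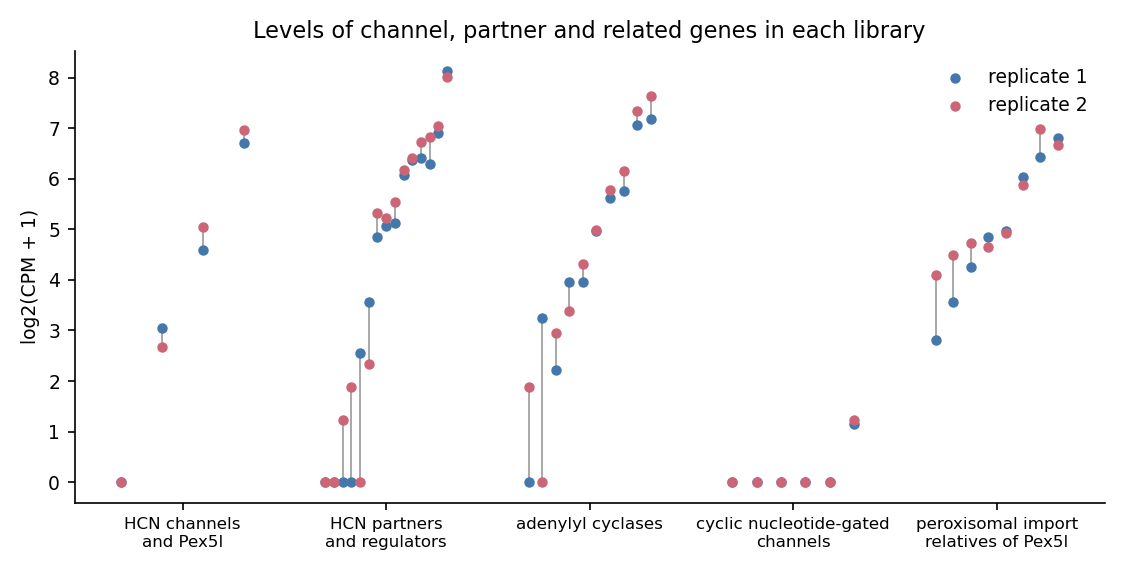
Level of each gene on the log2(CPM + 1) scale (vertical axis) in replicate 1 and replicate 2, joined by a line, for the HCN channels with Pex5l and for 4 lists of related genes (horizontal axis, sorted within a list by mean). Hcn2 is the top point of the first group, at 103 and 123 CPM.

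Reads opposite to the members were counted apart from all values above. Hcn2 had 2 antisense reads in each library against 85 and 92 sense reads. Hcn3 had 3 and 1, and Hcn4 had 0 and 0. Pex5l had 55 antisense reads in replicate 1 and 29 in replicate 2, which is 2.89 and 1.21 times its own reads. These counts are of unannotated models. The annotated plus-strand gene 4930419G24Rik, which overlaps Pex5l, added 2 and 1 reads. How read strand was set was not stated in the labels or files.

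**Figure D5:**
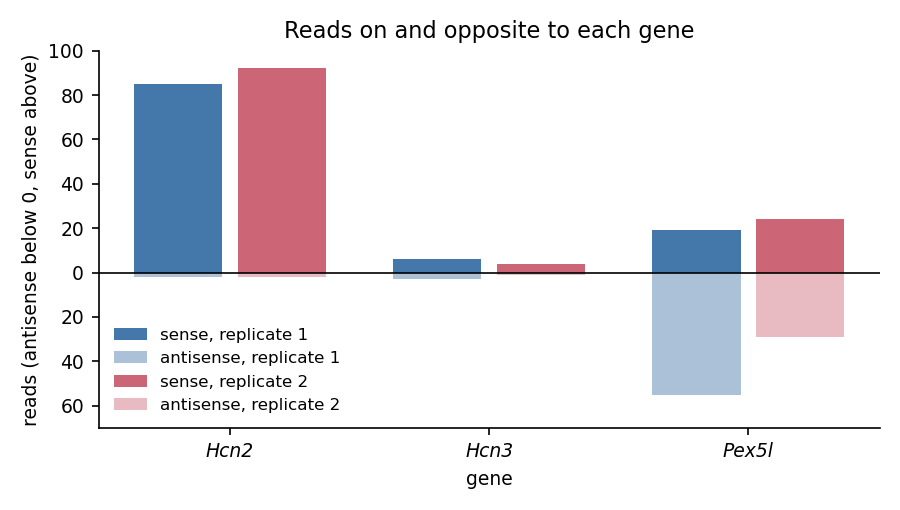
Reads assigned to each gene (above 0) and to unannotated models on the opposite strand within its bounds (below 0; vertical axis, reads) in replicate 1 and replicate 2, by gene (horizontal axis). Pex5l has 55 and 29 antisense reads against 19 and 24 sense reads.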

How the data were processed

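Long-read RNA sequencing of hippocampus gave 2 libraries of 1 group. What the authors deposited are counts of long reads per transcript model, in whole numbers and not normalized; models without a read are not listed. Other deposited values are each model's exon number, length and coordinates. Per the text files deposited with them, reads were aligned to mm10 with GENCODE M21, and per the file headers unannotated models come from TALON. The aligner, platform, versions and strand handling: not given in the sources used here. Each library was processed separately, so models were matched by intron chain.

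The libraries held 836240 and 752291 reads, of which 9644 and 6799 were spike-ins. Without these, 1 read was 1.21 and 1.34 CPM. A count of 0 allows 3 reads. Counts were summed per gene. Full-splice models are those TALON classes Known, NIC (annotated splice sites in a new combination) or NNC (an unannotated site). These classes do not require that a model spans the whole gene. ISM models hold part of a chain and Genomic models are unspliced or run into introns. Libraries were compared by exact binomial and Fisher's exact tests (scipy 1.17.1), after checks on simulated data. Alternatives used scaling factors of edgeR 4.0.16 and DESeq2 1.42.0 in R 4.3.3.

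Named are the 4 genes, list genes at 100 CPM or more with the highest and lowest 3, chains with at least 10% of full-splice reads, and the top 10 Pex5l chains. The members and lists were chosen with earlier results of these data known, and some genes that the rule names are not reported here. Sequences are those of GENCODE M21 transcripts, which give the mm10 reference and not the alleles of these hybrid mice.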

Additional observations from a re-analysis of the deposited data

Results flagged for a closer look

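A signal outside the main measurement lay opposite to Pex5l. An unspliced model on the plus strand, within the first intron that follows the upstream first exon, held 51 reads in replicate 1 and 29 reads in replicate 2, above the 3 reads that a count of 0 allows. It spanned chr3:33131995-33138239 (6245 bases) in replicate 1 and chr3:33133962-33138239 (4278 bases) in replicate 2, and ended in both at the same base, 4610 bases from the upstream first exon. The level was 61.7 CPM (95% exact interval 45.9 to 81.1) and 38.9 CPM (26.1 to 55.9), a mean of 50.3 ± 16.1 CPM (SD, n = 2). It ranked 153 of 22637 and 289 of 22208 unannotated antisense genes by reads. The only annotated gene that overlaps it is Pex5l. Unspliced reads have no splice site that shows their strand, so reads of unspliced Pex5l RNA and reads of a separate RNA cannot be told apart here. On the strand of Pex5l, 1 unspliced read of replicate 1 and 0 of replicate 2 overlapped this stretch.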

How the results depend on the processing

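Levels depended on the class of model counted and not on scaling. On full-splice models alone the means were 79.4 CPM for Hcn2, 3.89 for Hcn3 and 14.1 for Pex5l. Without single-exon models they were 89.7, 4.5 and 18.7 CPM, and without Genomic models Hcn3 was again at 4.5 and Pex5l at 18.7 CPM. Spike-ins in the total, edgeR's TMM factors and DESeq2's size factors moved each of the 4 levels by less than 1 SD. Of all genes, 28 were called between libraries; 52 were called with no fold limit, 61 without Genomic models and 14 on full-splice models. The log2 ratio of Hcn2 turned to -0.106 on full-splice models (adjusted p = 1.0, exact binomial test; 0.831 to 1.0 over its settings). The cause was not tested. Hcn2 and Pex5l were called under none of the settings run. For Pex5l, annotated models alone had 6 reads for the start and 3 for the exons. They gave an upstream share of 83.3% and 100% for the 124-base form. Inclusion was 25.0% for the 105-base exon and for the 72-base exon, both from the same 1 read of Pex5l-209. No annotated transcript has the intron from the upstream first exon to the 105-base exon, so this setting drops reads with it in advance. It thus could not test inclusion of that exon. Full-splice models gave 67.6% for the 105-base exon. Leaving out either library keeps every value within 1 SD by construction, as there are 2: Hcn2 ran from 103 to 123 CPM, Pex5l from 23.0 to 32.2 and the 105-base exon from 68.8 to 70.0%. No paired analysis was possible because the 2 libraries form 1 group. Depth limits Hcn3, Hcn4 and each Pex5l form to a few reads.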
